A study of Mus musculus with 4 samples.

Results

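The variable (V) segments of the T cell receptor alpha and beta chains were taken as every column of the deposited expression table whose name starts with Trav or Trbv. There were 90 such genes, 22 Trbv and 68 Trav, among the 12763 genes of the table. A cell was assigned to a Trbv segment when exactly 1 Trbv had a value above 0, and to a Trav segment by the same rule. Of 6965 cells, 3747 were assigned to a Trbv, 3131 to a Trav and 1710 to both. The share of a segment below is its percent of the cells assigned for that chain.

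The cells were CD8 T cells of mixed bone marrow chimeras. C57BL/6 recipients were lethally irradiated and received marrow of Cd4creCd137fl/flROSA26tomato and of Cd137fl/flROSA26tomato donors, then B16K1 melanoma cells under the skin, and spleen and tumour were taken on day 21. The Tnfrsf9 gene encodes CD137, a receptor that costimulates T cells once they are activated. Cre under the Cd4 promoter is active from the thymus on, in T cells of the first donor. All 4 groups carry the loxP-flanked gene and the ROSA26tomato allele, and only the CD137 minus donor carries Cre, so loss of CD137 and the presence of Cre cannot be told apart. Cells were sorted by the tomato reporter into CD137 minus and CD137 plus fractions. The labels disagree on which fraction was tomato positive, so groups follow the CD137 status alone. Each group (spleen CD137 minus, spleen CD137 plus, tumour CD137 minus and tumour CD137 plus) was 1 library of cells pooled from 7 mice, and the table does not say which mouse a cell came from. No difference below has a replicate error or a test. Intervals in parentheses are exact Clopper-Pearson 95% binomial intervals, which cover counting error only.

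A T cell receptor is built in the thymus by joining 1 V segment to shorter segments and then to a constant region, separately for the alpha and the beta chain. The beta chain comes from the Trbv segments and the constant genes Trbc1 or Trbc2, and the alpha chain from the Trav segments and Trac. Most T cells express a single beta chain, while the alpha locus often rearranges on both chromosomes. Daughter cells of a T cell that divides keep its receptor, so cells of a clone share V segments. The converse does not hold, since cells with the same pair of V segments can differ in the joined region, called CDR3, which the table does not contain.

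The ends of the V segments of the most frequent tumour pairs are shown because they are the germline letters that enter CDR3. Each line gives the last 60 bases of the annotated transcript, 5′ to 3′, from GENCODE M21 on mm10, where the Trbv genes lie on chromosome 6 and the Trav genes on chromosome 14. The capitals mark the codon of the conserved cysteine at which CDR3 starts, and the coordinates are those of the whole gene.
Trbv4 (chr6:41059394-41059886, plus strand): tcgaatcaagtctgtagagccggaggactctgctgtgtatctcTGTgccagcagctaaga
Trbv12-1 (chr6:41113550-41114067, plus strand): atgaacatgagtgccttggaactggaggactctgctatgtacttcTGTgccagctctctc
Trbv12-2 (chr6:41118851-41119364, plus strand): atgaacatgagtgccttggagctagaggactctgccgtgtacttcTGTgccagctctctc
Trbv13-2 (chr6:41121396-41121832, plus strand): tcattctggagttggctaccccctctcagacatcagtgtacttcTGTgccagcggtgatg
Trbv13-3 (chr6:41130147-41130585, plus strand): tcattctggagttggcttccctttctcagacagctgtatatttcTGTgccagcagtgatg
Trbv29 (chr6:41271394-41271881, plus strand): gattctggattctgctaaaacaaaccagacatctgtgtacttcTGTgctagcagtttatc
Trav14-1 (chr14:53554022-53554558, plus strand): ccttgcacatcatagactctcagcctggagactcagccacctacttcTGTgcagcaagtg
Trav3-1 (chr14:52580665-52581213, plus strand): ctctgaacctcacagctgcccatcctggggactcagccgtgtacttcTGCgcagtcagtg
Trav3-3 (chr14:53665929-53666506, plus strand): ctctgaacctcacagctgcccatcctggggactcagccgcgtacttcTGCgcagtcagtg
Trav12-3 (chr14:53621657-53622245, plus strand): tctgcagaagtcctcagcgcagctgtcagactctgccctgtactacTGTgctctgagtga
Trav13-1 (chr14:53545014-53545525, plus strand): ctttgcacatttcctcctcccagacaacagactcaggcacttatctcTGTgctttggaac
Trav8-1 (chr14:53469756-53470232, plus strand): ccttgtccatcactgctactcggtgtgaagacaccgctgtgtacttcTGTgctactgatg
Trav6-4 (chr14:53454296-53454784, plus strand): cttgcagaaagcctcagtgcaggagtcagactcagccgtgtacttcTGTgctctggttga

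All 90 members matched the annotation by name, which lists 35 Trbv (13 of them pseudogenes) and 128 Trav (20 pseudogenes). The beta segments differ widely in sequence: the median identity of a Trbv transcript to its closest annotated Trbv was 65.2%, and none of the 22 reached 95%. Trbv12-1 and Trbv12-2, which lie on either side of Trbv13-1, were 88.3% identical over 385 bases, and Trbv13-2 and Trbv13-3 90.6% over 340 bases. Alpha segments are largely repeated copies, with a median identity to the closest copy of 97.4% and 57 of 68 at 95% or more. A Trav value may therefore include reads of a copy, and Trav shares are less certain than Trbv shares. The copies of Trav14-1 (Trav14d-1, 95.2% identical), Trav3-3 (Trav3d-3, 97.9%) and Trav12-3 (Trav12d-3, 96.8%), which carry results below, are examples.

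The spleen libraries held 2464 CD137 minus and 473 CD137 plus cells, and the tumour libraries 1262 and 2766. Spleen CD137 plus had the fewest cells and so gives the widest intervals of the libraries. Values are corrected counts, whole numbers recovered from a natural log scale, and those of the 166 columns used here summed to 410073, 106747, 277477 and 573446 in the same order. Segments found in under 5 cells of a given library appear as 0 there, which left 0 to 2 Trbv and 4 to 30 Trav listed at 0 in a library. Pairs of libraries shared 0 to 7 cell barcodes. Tnfrsf9 had a value in 0.852% of minus and 4.23% of plus cells in spleen, and in 15.8% of minus and 45.3% of plus cells in tumour. It was thus lower in the minus library of each tissue but not absent from the tumour one, and whether its reads lie in the deleted part was not tested. The CD8 T cell markers Cd8a, Cd8b1, Cd3d, Cd3e and Trac summed to means of 18.9 to 23.3 corrected counts per cell, against at most 1.67 for dendritic cell markers, 1.22 for B cell, 0.525 for NK cell, 0.166 for macrophage, 0.164 for melanoma and 0.0586 for CD4 T cell markers. Cd4 had a value in 0% to 1.51% of cells and Trdc, the delta constant gene of gamma delta T cells, in 0.398% to 1.69%.

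Beta segments were seen in nearly every cell and alpha segments in about 2 of 3. At least 1 Trbv had a value in 91.2% of all cells (90.5 to 91.9) and at least 1 Trav in 66.6% (65.5 to 67.7). Exactly 1 Trbv was seen in 52.2% of minus and 56.9% of plus cells in spleen, and in 55.3% and 54.0% in tumour. For Trav these percentages were 43.5%, 45.2%, 46.2% and 45.7%. The assigned cells were thus a similar part of each library.

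Many cells held a second segment at a low value. In the 1937 cells with exactly 2 Trbv the median of the higher value was 6 corrected counts and of the lower 1, and the lower was exactly 1 in 73.4% of them. Of the assigned Trbv cells, 12.6% rested on a value of 1. By number of cells, Trbv13-2 was the segment most often seen with another: it had a value in 1233 cells and was alone in 23.1% of them, with Trbv12-2 beside it in 254 and Trbv13-3 in 179. Trbv4 was alone in 53.3% of its 285 cells. Trbv24, annotated as a pseudogene, had a value in 106 cells and was alone in 4. Among 47 tumour cells with at least 2 melanoma markers, a Trbv value was present in 72.3% (57.4 to 84.4) and a Trav value in 34.0% (20.9 to 49.3), with a median of 141 corrected counts in the columns used against 196 to 205 in the tumour libraries. All 47 also had a Cd8a or Cd8b1 value, so they do not show how often cells without CD8 RNA have a Trbv value. The part of free RNA or of doublets in these cells and in the second segments was not tested.

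In spleen, both CD137 fractions used the beta segments in much the same order, whereas the tumour fractions led with different ones. Trbv12-1, Trbv13-1 and Trbv12-2 led in both spleen libraries and made up 29.8% of assigned cells in CD137 minus and 32.0% in CD137 plus. In tumour CD137 minus the leading 3 were Trbv12-1, Trbv4 and Trbv13-1 (33.5%), and in tumour CD137 plus they were Trbv29, Trbv12-1 and Trbv12-2 (37.7%). Assigned cells numbered 1286, 269, 698 and 1494 in the order spleen minus, spleen plus, tumour minus, tumour plus, which is kept below.

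**Figure D1:**
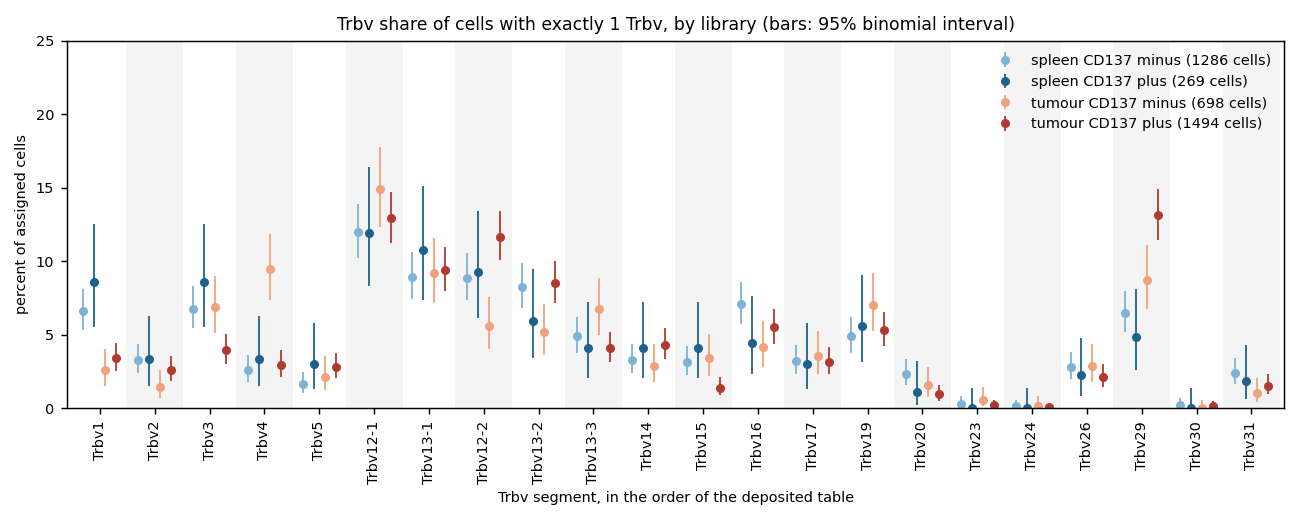
Percent of assigned cells (y axis) for each of 22 Trbv segments (x axis, in table order), with points for the 4 libraries and bars for exact 95% binomial intervals. Trbv4 stands apart in tumour CD137 minus at 9.46%, Trbv29 is highest in tumour CD137 plus at 13.1%, and Trbv1 is lower in both tumour libraries than in either spleen library.

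Trbv4 was used by 2.57% (1.77 to 3.59), 3.35% (1.54 to 6.26), 9.46% (7.39 to 11.9) and 2.95% (2.15 to 3.93) of assigned cells. Its share was thus highest in tumour CD137 minus, with an interval above the other 3, 3.68-fold that of minus spleen and 3.21-fold that of tumour CD137 plus. Without the cells of the 10 leading pairs described below, the latter ratio was 0.462. Trbv12-2 had shares of 8.86%, 9.29%, 5.59% (4.00 to 7.56) and 11.6% (10.1 to 13.4), lower in the minus than in the plus tumour library by a ratio of 0.480. Trbv15 was found in 3.11%, 4.09%, 3.44% (2.22 to 5.07) and 1.41% (0.872 to 2.14). These 3 were the segments with a 2-fold or larger difference between the tumour libraries, out of 19 with at least 25 assigned cells over both (15.8%), of which 2 were higher (10.5%) and 1 lower (5.26%) in minus. Only Trbv4 stayed past 2-fold when each cell was given to its highest segment (1 of 19) or when values of 1 were ignored (1 of 18).

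Other beta segments differed by less between the tumours, with intervals that did not overlap. Trbv13-2 took 8.24%, 5.95%, 5.16% (3.64 to 7.07) and 8.50% (7.14 to 10.0) of assigned cells. With any value counted, it was present in 15.1% of minus and 16.7% of plus tumour cells, which is closer. It was alone in 18.8% and 27.4% of those cells, so its shares depend on the assignment rule. For Trbv29 the values were 6.45% (5.17 to 7.94), 4.83% (2.60 to 8.12), 8.74% (6.75 to 11.1) and 13.1% (11.4 to 14.9), so that it was 2.71-fold more frequent in plus tumour than in plus spleen. Trbv3 went the other way, with 6.77%, 8.55%, 6.88% (5.11 to 9.01) and 3.95% (3.02 to 5.06). In all, 6 of the 19 segments had tumour intervals apart (31.6%), and none of 19 did between the spleen libraries (0%). A single segment, Trbv20, passed 2-fold in spleen (1 of 19, 5.26%), on 30 and 3 cells.

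Trbv1 was the 1 beta segment, of those compared in both fractions, that was past 2-fold lower in tumour than in spleen in each. It was used by 6.61% (5.31 to 8.11), 8.55% (5.50 to 12.6), 2.58% (1.54 to 4.05) and 3.41% (2.55 to 4.46) of assigned cells, which gave tumour to spleen ratios of 0.390 for CD137 minus and 0.399 for CD137 plus. A Trbv1 value, alone or beside others, was present in 7.71%, 7.19%, 4.12% and 4.59% of all cells, a smaller difference. It was alone in 44.7%, 67.6%, 34.6% and 40.2% of those cells, so the ratios depend on the assignment rule. No alternative rule was run for tumour against spleen. Of the segments compared, 4 of 19 (21.1%) passed 2-fold between tumour and spleen for CD137 minus, namely Trbv4 upward (5.26%) and Trbv1, Trbv2 and Trbv31 downward (15.8%). For CD137 plus it was 4 of 18 (22.2%), with Trbv29 upward (5.56%) and Trbv1, Trbv3 and Trbv15 downward (16.7%). Trbv13-1, by contrast, took 8.94%, 10.8%, 9.17% and 9.37%, and all 4 intervals overlapped.

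Within the tumour, cells were split by Pdcd1, which encodes the inhibitory receptor PD-1 carried by T cells after contact with antigen. Values of Pdcd1 were present in 40.7% of CD137 minus and 55.2% of CD137 plus tumour cells, against 1.34% and 2.54% in spleen. Cells with Pdcd1 also had more corrected counts in the columns used, with medians of 239 against 191 in CD137 minus and 211 against 178 in CD137 plus. The part of this difference in the shares was not tested. Exactly 1 Trbv was found in 54.5% and 55.9% of CD137 minus cells with and without Pdcd1, and in 53.9% and 54.2% of CD137 plus cells. The assigned cells numbered 280 with and 418 without Pdcd1 in CD137 minus, and 823 and 671 in CD137 plus.

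**Figure D2:**
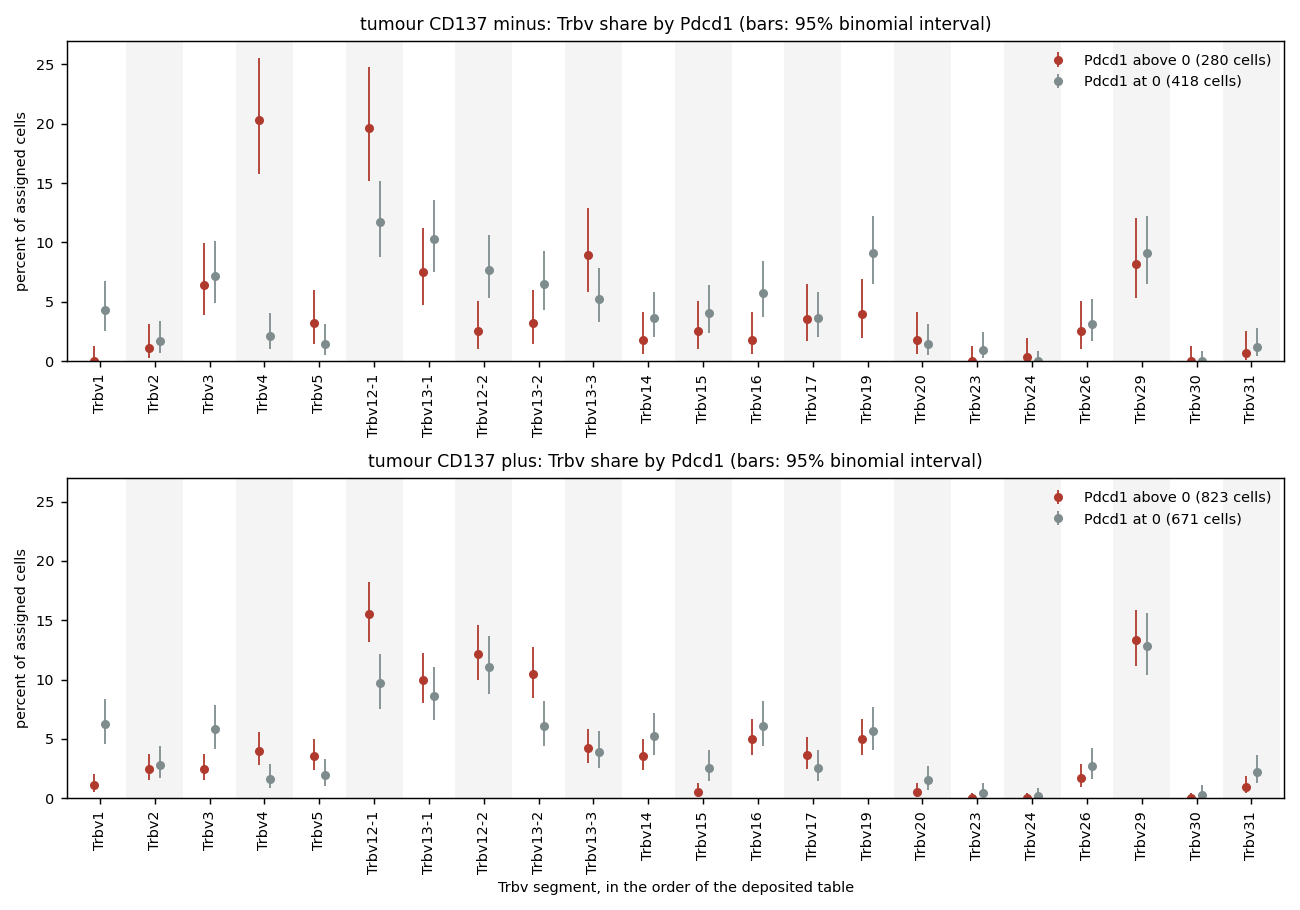
Percent of assigned cells (y axis) for each Trbv (x axis) among tumour cells with Pdcd1 above 0 (red) and at 0 (grey), with exact 95% binomial intervals, for CD137 minus (top) and CD137 plus (bottom). Trbv4 reaches 20.4% of CD137 minus cells with Pdcd1 and 2.15% without, and Trbv1 is lower with Pdcd1 in both libraries.

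In CD137 minus, Trbv4 made up 20.4% (15.8 to 25.6) of cells with Pdcd1 and 2.15% (0.989 to 4.05) of cells without, a 9.45-fold difference. The share with Pdcd1 was 14.5% with the highest segment per cell and 14.9% with values of at least 2, both below that interval. The ratios were then 8.49 and 12.8. Trbv4 values were low, with a median where alone of 2 corrected counts in tumour CD137 minus and 1 in tumour CD137 plus. In CD137 plus the same segment had 4.01% (2.78 to 5.59) and 1.64% (0.821 to 2.91). Trbv12-1 was high in both, at 19.6% (15.2 to 24.8) with Pdcd1 against 11.7% (8.80 to 15.2) without in CD137 minus, and 15.6% (13.1 to 18.2) against 9.69% (7.56 to 12.2) in CD137 plus. Together with Trbv13-3 (8.93% with and 5.26% without), Trbv4 and Trbv12-1 took 48.9% of CD137 minus cells with Pdcd1.

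Trbv12-2 was less frequent with Pdcd1 in CD137 minus, and Trbv13-2 more frequent with Pdcd1 in CD137 plus. In CD137 minus, Trbv12-2 was found in 2.50% (1.01 to 5.08) of cells with Pdcd1 and 7.66% (5.30 to 10.6) without, while in CD137 plus it was found in 12.2% and 11.0%. For Trbv13-2 the shares were 3.21% (1.48 to 6.01) and 6.46% (4.30 to 9.26) in CD137 minus, and 10.4% (8.44 to 12.7) and 6.11% (4.42 to 8.20) in CD137 plus. The difference between the libraries in these contrasts was not tested. Trbv29, which led in CD137 plus, took 13.4% (11.1 to 15.9) of cells with Pdcd1 and 12.8% (10.4 to 15.6) of cells without, so that the intervals largely overlapped.

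Trbv1 had no assigned cell among the 280 CD137 minus cells with Pdcd1, which allows a share of up to 1.07% at a floor of 3 cells (exact interval 0 to 1.31), against 4.31% (2.57 to 6.72) of cells without. In CD137 plus it had 1.09% (0.501 to 2.07) with and 6.26% (4.55 to 8.37) without, a ratio of 0.175. The share without Pdcd1 in CD137 plus tumour lay within the spleen intervals given above. Across segments with at least 25 cells over both classes, 5 of 11 passed 2-fold in CD137 minus (45.5%). They were Trbv4 upward (9.09%) and Trbv12-2, Trbv13-2, Trbv16 and Trbv19 downward (36.4%). Intervals were apart for only 2 of these 11 (18.2%). Shares of a class add up to a fixed total, so a higher Trbv4 share lowers the others by construction. Without cells of the 10 leading pairs, the ratios were 0.505 for Trbv12-2, 0.745 for Trbv13-2, 0.466 for Trbv16 and 0.647 for Trbv19. Of 10 segments then compared, only Trbv16 was past 2-fold. In CD137 plus 3 of 16 passed 2-fold with all cells (18.8%), Trbv4 upward (6.25%) and Trbv1 and Trbv3 downward (12.5%). With Tox, a transcription factor of exhausted T cells, in place of Pdcd1, the ratio of Trbv4 was 3.73 in CD137 minus and 0.770 in CD137 plus, where only Trbv1 stayed past 2-fold.

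Alpha segments were spread over more genes, and the fractions again led with different segments in tumour. Assigned cells numbered 1071, 214, 583 and 1263. Trav14-1 took 3.55% (2.52 to 4.84), 3.27% (1.33 to 6.62), 11.5% (9.02 to 14.4) and 4.04% (3.02 to 5.28), and so was highest in tumour CD137 minus. Trav3-1 had 1.40% and 4.80% (3.21 to 6.87) in minus spleen and tumour and 1.58% (0.970 to 2.44) in plus tumour, and was listed at 0 in plus spleen. Trav12-3 was used by 2.24%, 2.80%, 1.89% (0.946 to 3.35) and 6.49% (5.20 to 8.00), and Trav3-3 by 3.92%, 5.14%, 3.95% (2.52 to 5.86) and 8.08% (6.63 to 9.72). Both were thus highest in tumour CD137 plus.

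Between the tumour libraries 11 of 25 alpha segments passed 2-fold (44%). The 5 that were higher in minus (20%) were Trav14-1, Trav3-1, Trav4-4-dv10, Trav6-1 and Trav6-7-dv9. The 6 that were lower (24%) were Trav1, Trav3-3, Trav8-1, Trav8d-2, Trav12-3 and Trav13-1. Intervals were apart for only 5 of the 25 (20%), so several of the named segments had a 2-fold difference with overlapping intervals. Names with dv mark segments that can also join the delta chain. Between the spleen libraries 2 of 19 passed 2-fold (10.5%), Trav13-1 and Trav5-4, with 4 to 56 cells each and overlapping intervals. Between tumour and spleen the counts were 6 of 30 for CD137 minus (20%), with 4 higher in tumour (13.3%) and 2 lower (6.67%), and 7 of 18 for CD137 plus (38.9%), with 3 higher (16.7%) and 4 lower (22.2%). Of the latter 7, none had intervals apart, since plus spleen held 2 to 12 cells of each.

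The alpha segments were also grouped by the copy that their name marks. The 14 segments with d after the family number took 8.75% to 15.9% of assigned cells over the 4 libraries. The 12 with n there took 13.1% to 17.8%, and the other 42 segments 71.0% to 76.1%. As reads of near-identical copies may be mixed, these shares are uncertain. The larger value for d copies, in spleen CD137 plus, rested on 34 cells (11.3 to 21.5).

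**Figure D3:**
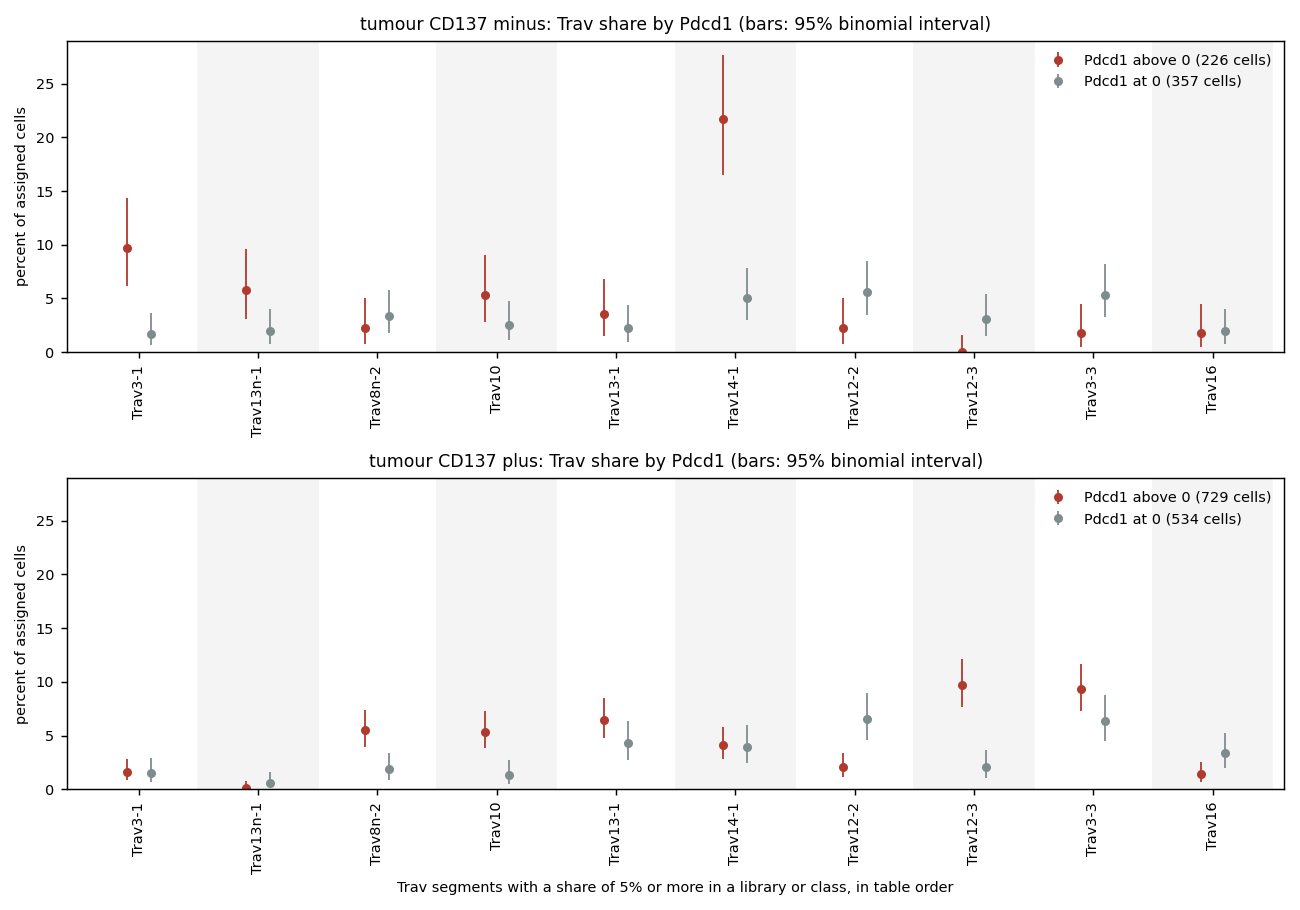
Percent of assigned cells (y axis) for the 10 Trav segments that reached 5% in any library or class (x axis), among tumour cells with Pdcd1 above 0 (red) and at 0 (grey), with exact 95% binomial intervals. Trav14-1 and Trav3-1 are high with Pdcd1 in CD137 minus (top), and Trav12-3 and Trav10 in CD137 plus (bottom).

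A Trav value of any kind was more common with Pdcd1, in 72.2% against 64.8% of CD137 minus and 73.6% against 62.3% of CD137 plus cells. Among assigned cells, Trav14-1 had 21.7% (16.5 to 27.6) of 226 CD137 minus cells with and 5.04% (3.02 to 7.85) of 357 without, a 4.30-fold difference, against 4.12% and 3.93% in CD137 plus. Trav3-1 had 9.73% (6.20 to 14.4) and 1.68% (0.619 to 3.62) in CD137 minus, and 1.65% and 1.50% in CD137 plus. Trav12-3 was the reverse. None of the 226 CD137 minus cells with Pdcd1 was assigned to it, which allows up to 1.33% at the same floor (exact interval 0 to 1.62), and 3.08% of those without were, whereas in CD137 plus it had 9.74% (7.68 to 12.1) of 729 cells with and 2.06% (1.03 to 3.66) of 534 without. Trav10 was higher with Pdcd1 in CD137 plus (5.35%, 3.83 to 7.24, against 1.31%, 0.529 to 2.68) and had 5.31% and 2.52% in CD137 minus, where the intervals overlapped. Trav12-2 was lower with Pdcd1 in both, at 2.21% against 5.60% in CD137 minus and 2.06% (1.16 to 3.37) against 6.55% (4.61 to 9.00) in CD137 plus. All 3 alpha segments with enough cells in CD137 minus passed 2-fold (100%), 2 upward (66.7%) and Trav12-2 downward (33.3%). The filter of at least 25 cells over both classes favours segments that are frequent in a single class. With so few segments past that filter, 3 of 3 is partly built in and is no separate result. In CD137 plus 7 of 16 passed 2-fold (43.8%), of which Trav12-3, Trav10, Trav8n-2 and Trav6-4 were upward (25%) and Trav12-2, Trav16 and Trav7-4 downward (18.8%). Intervals were apart for 4 of these 16 (25%).

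Segment use was narrower in tumour cells with Pdcd1. The inverse Simpson index, which equals the number of segments if all were used equally, was 15.0 and 14.3 for Trbv in minus and plus spleen and 13.4 and 12.5 in tumour. With Pdcd1 it was 8.90 in CD137 minus, against 14.2 without, and 10.9 against 13.9 in CD137 plus. For Trav it was 13.3 against 38.0 in CD137 minus and 23.4 against 35.7 in CD137 plus. At an equal number of cells per class the order was the same, with 8.82 against 13.2 and 10.7 against 12.5 for 269 cells with a Trbv, and 13.0 against 35.6 and 19.5 against 31.8 for 214 cells with a Trav.

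Pairs of segments were counted in cells with exactly 1 Trbv and exactly 1 Trav, which numbered 546, 121, 343 and 700. In spleen the pairs were many and small: the 546 cells of CD137 minus held 383 distinct pairs, the largest of which, Trbv12-1 with Trav8n-2, had 6 cells. In tumour CD137 minus, 1 pair stood far above the rest. Trbv4 with Trav14-1 had 41 cells (12.0%, 8.72 to 15.9), and 39 of them had Pdcd1. The next, Trbv13-3 with Trav3-1, had 12 cells, 11 with Pdcd1. Among CD137 plus tumour cells the leading pairs were Trbv12-2 with Trav3-3 (54 cells, 7.71%, 5.85 to 9.95), Trbv13-2 with Trav12-3 (35 cells), Trbv12-1 with Trav13-1 (29), Trbv29 with Trav8-1 (27) and Trbv29 with Trav6-4 (20).

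**Figure D4:**
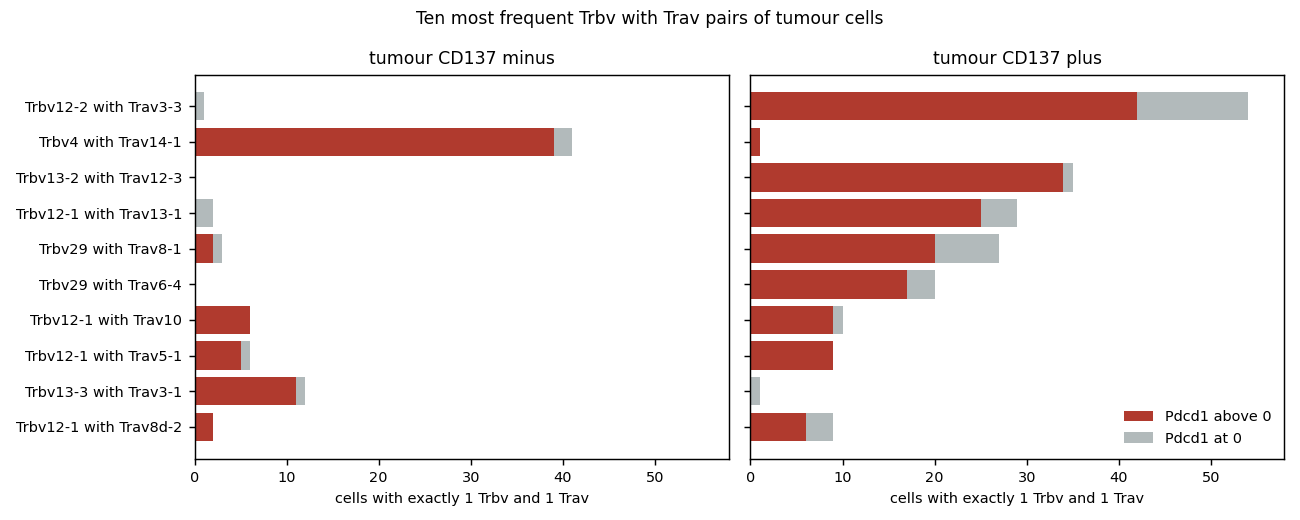
Number of cells with exactly 1 Trbv and 1 Trav (x axis) for the 10 most frequent tumour pairs (y axis), in CD137 minus (left) and CD137 plus (right), with cells with Pdcd1 in red and without in grey. Trbv4 with Trav14-1 has 41 cells on the left and 1 on the right, and Trbv12-2 with Trav3-3 has 1 and 54.

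The leading pairs were mostly found in a single tumour library. Trbv4 with Trav14-1 had 1 cell in tumour CD137 plus, 2 in spleen CD137 minus and none in spleen CD137 plus. Trbv12-2 with Trav3-3 had 1 cell in tumour CD137 minus, and Trbv13-2 with Trav12-3 and Trbv29 with Trav6-4 had none there, where Trav6-4 is itself listed at 0. Pairs with Trbv12-1 were seen in both tumours: with Trav10 in 6 minus and 10 plus cells, and with Trav5-1 in 6 and 9. Products of the segment shares gave 2.38 and 3.30 cells for the former, and 0.892 and 2.20 for the latter. With any values counted, Trav14n-3 lay beside Trbv12-1 with Trav10 in 15 of 32 minus cells. Among the 30 plus cells of that pair no further Trav was seen in more than 1. Trav12-3 lay beside Trbv12-1 with Trav5-1 in 7 of 25 plus cells, and no further Trav in the 10 minus cells. CD137 minus and plus cells descend from different marrow donors, so a clone belongs to 1 fraction by design. Finding a pair in 1 tumour library therefore does not by itself link it to CD137, and such a link was not tested. Whether the same receptor sequence arose in both fractions was not tested either. Because mice were pooled, cells of a pair may come from 1 mouse or several.

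Pairs seen in at least 5 cells held 22.4% (18.1 to 27.2) of the paired tumour cells of CD137 minus and 43.3% (39.6 to 47.0) of those of CD137 plus, against 3.85% (2.40 to 5.82) in spleen CD137 minus and none of 121 in spleen CD137 plus. This share grows with the number of cells, which was larger in tumour CD137 plus. Within the tumour it was 44.9% (36.3 to 53.6) with Pdcd1 against 2.90% (1.07 to 6.20) without in CD137 minus, where the class with Pdcd1 was the smaller (136 against 207 cells). In CD137 plus it was 54.7% (49.7 to 59.6) of 406 cells against 8.16% (5.30 to 11.9) of 294.

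With any values of both segments counted, also beside others, more cells of these pairs were found. Trbv4 with Trav14-1 then had 68 cells of tumour CD137 minus, which is 68 of 100 cells with a Trbv4 value and 68 of 103 with a Trav14-1 value there, and 1 cell of tumour CD137 plus among 91 with Trbv4 and 95 with Trav14-1. Trbv12-2 with Trav3-3 had 122 cells of tumour CD137 plus, Trbv13-2 with Trav12-3 had 108, Trbv29 with Trav8-1 had 78, Trbv12-1 with Trav13-1 had 42 and Trbv29 with Trav6-4 had 39. In tumour CD137 minus, Trbv12-1 with Trav10 had 32 cells and Trbv13-3 with Trav3-1 had 29. Cells in any of the 10 leading pairs made up 12.6% of minus and 16.6% of plus tumour cells, against 2.72% and 2.96% of spleen. They were 25.7% and 25.5% of tumour cells with Pdcd1, and 3.61% and 5.57% of those without. The 10 pairs were chosen for their frequency in tumour cells, so a larger share in tumour than in spleen follows from that choice and is no separate result.

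Most of the larger differences in segment shares were smaller or changed direction without these pairs. Without the cells of the 10 leading pairs, Trbv4 had 1.64% of CD137 minus cells with Pdcd1, Trav14-1 2.86% and Trav3-1 0.714%, and in CD137 plus cells with Pdcd1 Trbv12-2 had 4.53%, Trbv13-2 5.07%, Trbv29 6.16%, Trav12-3 3.00% and Trav3-3 2.40%. The ratio of Trbv4 between tumour CD137 minus and plus was then 0.462 in place of 3.21, and that of Trav14-1 0.749 in place of 2.85. Trbv1 kept its direction, with a ratio of cells with to without Pdcd1 of 0.242 in CD137 plus, and the ratio of Trbv4 there was 3.28 in place of 2.45. These pairs were chosen for their frequency in the same cells, so that their removal lowers these segments by construction.

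Some alpha segments recurred together in cells of a pair, and these combinations were picked after their values were seen. In tumour CD137 plus, 41 cells held both Trav3-3 and Trav8d-2, and all 41 had a Trbv12-2 value, against 14.9% of the library. Trav8-1 with Trav9-4 was seen in 40 cells, of which 39 had Trbv29 (13.5% of the library). Trav12-3 with Trav6-2 was seen in 18, all with Trbv13-2 (16.7%), and Trav6-4 with Trav10 in 10, all with Trbv29. In tumour CD137 minus Trav10 with Trav14n-3 was seen in 15 cells, all with Trbv12-1 (14.3% of the library) and all with Pdcd1. Of 15 cells with Trav14-1 and Trav16n, 10 had Trbv4. Other combinations were spread over more beta segments: of 21 CD137 plus cells with Trav14n-3 and Trav7-4, the leading Trbv5 had 7, and of 19 with Trav1 and Trav8d-2, the leading Trbv4 had 10. The second segment was present in 50.0% of the cells of Trbv29 with Trav8-1, 33.6% of Trbv12-2 with Trav3-3 and 14.7% of Trbv4 with Trav14-1. Cells with 2 alpha segments are left out of the pair counts that need exactly 1.

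**Figure D5:**
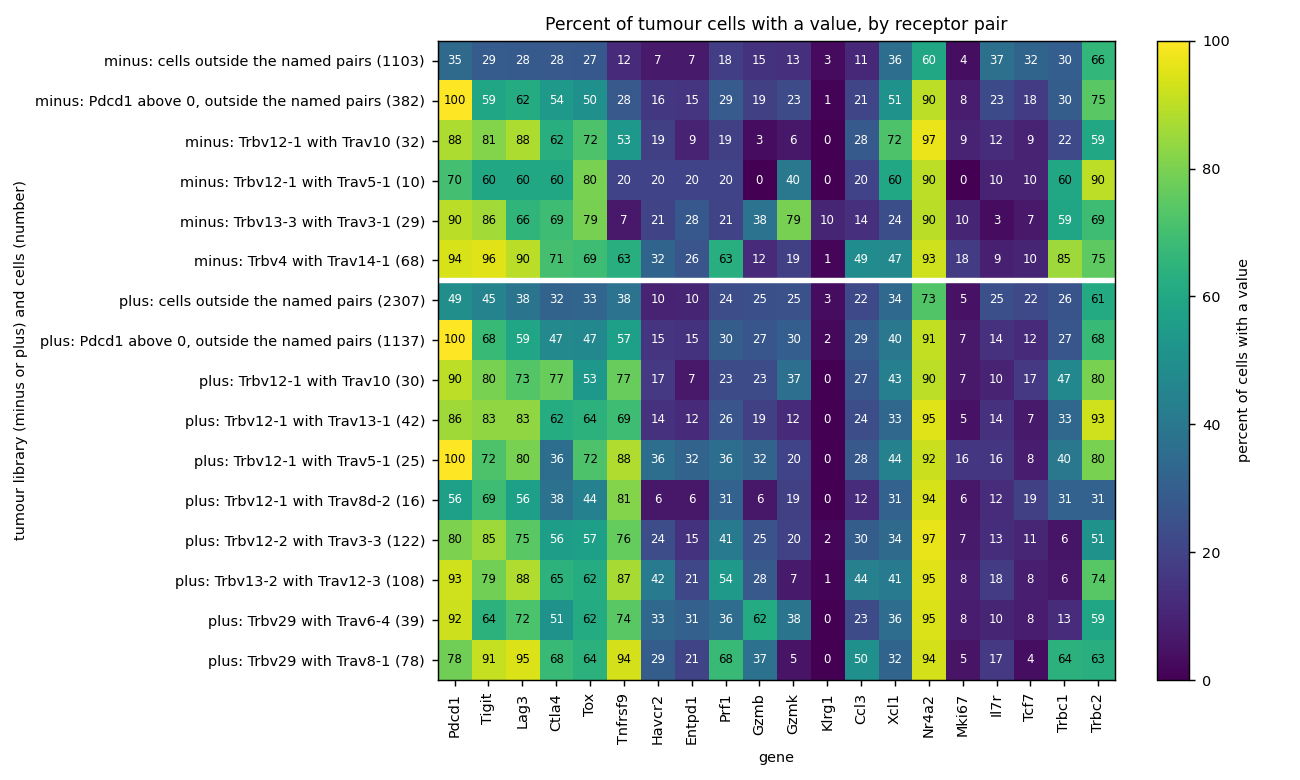
Percent of cells with a value (colour and number) for 20 genes (x axis) in tumour cells of each named pair with at least 10 cells, in cells outside the named pairs, and in such cells with Pdcd1 (y axis, cell numbers in parentheses), for CD137 minus (top) and CD137 plus (bottom). Tigit and Lag3 are found in at least 56.2% of the cells of every pair shown.

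In the largest pair of each tumour library, the inhibitory receptor genes Tigit and Lag3 had values in a larger share of cells than among cells with Pdcd1 outside the pairs, all of which have Pdcd1 by choice. Cells of a pair need a value of both chains, which cells outside the pairs do not. No Trav value was seen in 27.8% of CD137 minus and 26.4% of CD137 plus tumour cells with Pdcd1. The part of such unequal detection in the differences here and below was not tested. In Trbv4 with Trav14-1, 94.1% (85.6 to 98.4) of 68 cells had Pdcd1, 95.6% Tigit, 89.7% Lag3 and 69.1% Tox. Among the 382 CD137 minus cells with Pdcd1 outside the pairs these were 59.2% for Tigit, 61.5% for Lag3 and 50.0% for Tox. The inhibitory receptors Ctla4 and Havcr2 had values in 70.6% (58.3 to 81.0) and 32.4% (21.5 to 44.8) of the pair, against 53.7% (48.5 to 58.8) and 16.2% (12.7 to 20.3). In the largest CD137 plus pair, Trbv12-2 with Trav3-3, 80.3% (72.2 to 87.0) of 122 cells had Pdcd1, 85.2% Tigit and 74.6% Lag3, against 67.5% and 58.7% in the 1137 cells with Pdcd1 outside the pairs. For Ctla4 (55.7%, 46.5 to 64.7, against 47.1%, 44.2 to 50.1) and Havcr2 (23.8%, 16.5 to 32.3, against 15.1%, 13.1 to 17.3) the intervals overlapped.

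The pairs differed in their effector genes. Prf1, the pore-forming protein perforin, was found in 63.2% of Trbv4 with Trav14-1, 67.9% of Trbv29 with Trav8-1 and 53.7% of Trbv13-2 with Trav12-3 cells, but in 20.7% of Trbv13-3 with Trav3-1 and 18.8% of CD137 minus Trbv12-1 with Trav10. Gzmk, which encodes a granzyme, had a value in 6.25% (0.766 to 20.8) of the latter pair, 79.3% (60.3 to 92.0) of Trbv13-3 with Trav3-1, 5.13% (1.41 to 12.6) of Trbv29 with Trav8-1 and 7.41% (3.25 to 14.1) of Trbv13-2 with Trav12-3. Gzmb, a granzyme of cytotoxic cells, reached 61.5% (44.6 to 76.6) in Trbv29 with Trav6-4 and 37.2% (26.5 to 48.9) in Trbv29 with Trav8-1, against 26.9% in the CD137 plus cells with Pdcd1 outside the pairs. Tnfrsf9 had a value in 63.2% (50.7 to 74.6) of the Trbv4 with Trav14-1 cells of the minus library and in 6.90% (0.846 to 22.8) of Trbv13-3 with Trav3-1, against 28.0% of minus cells with Pdcd1 outside the pairs. In CD137 plus it ranged from 69.0% in Trbv12-1 with Trav13-1 to 93.6% in Trbv29 with Trav8-1.

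By beta segment alone, in segments with at least 40 assigned tumour cells, Pdcd1 had a value in 22.4% of Trbv19 to 86.4% of Trbv4 cells in CD137 minus, and in 17.6% of Trbv1 to 75.0% of Trbv4 cells in CD137 plus. For 7 exhaustion genes other than Pdcd1, the number with a value was counted per cell. These genes include Tnfrsf9, the gene lost in CD137 minus, with a value in 15.8% of minus and 45.3% of plus tumour cells. Trbv4 cells of CD137 minus had on average 4.09 of these genes with a value, against 1.63 in all assigned cells of the library. Trbv1 cells of CD137 plus were at the other end with 0.745 exhaustion genes against 2.49. Trbv29 cells, the largest beta group of CD137 plus, had 2.93 exhaustion genes with a value, below Trbv13-2 (3.18), Trbv5 (3.14) and Trbv12-1 (3.00), and in CD137 minus Trbv29 cells had 1.61 against 1.63. In CD137 plus, Gzmb had a value in 37.8% of Trbv29 cells against 25.4% of all assigned cells.

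The constant genes also differed between pairs. Trbc1 had a value in 85.3% (74.6 to 92.7) of Trbv4 with Trav14-1 cells, against 33.6% of the minus library, and in 64.1% (52.4 to 74.7) of Trbv29 with Trav8-1 cells. In Trbv12-2 with Trav3-3 it was 5.74% (2.34 to 11.5), in Trbv13-2 with Trav12-3 it was 6.48% (2.65 to 12.9) and in Trbv29 with Trav6-4 it was 12.8% (4.30 to 27.4), against 25.7% of the plus library. Thus the Trbv29 pairs, which share their beta segment, were far apart in Trbc1. Trbc2 ranged less, from 50.8% in Trbv12-2 with Trav3-3 to 92.9% in Trbv12-1 with Trav13-1 among pairs with at least 25 cells of CD137 plus. Trbc1 and Trbc2 are near-identical genes, so reads may be split between them. The library values include cells without a Trbv or Trav value, unlike the pairs, and the part of this was not tested.

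Of the other receptor genes listed with the segments, Trac had a value in 56.8%, 48.0%, 63.0% and 61.5% of cells, and Trbc2 in 72.7%, 64.9%, 66.7% and 62.0%. Cd3d, Cd3e and Cd3g, the signalling partners of the receptor, had values in 95.8% to 99.4% of cells in every library, and Cd247, the zeta chain, in 64.4%, 75.1%, 62.1% and 50.4%. Trgv2, a gamma V segment, had a value in 1.75%, 6.55%, 10.8% and 19.0% of cells, while Trdc was at most 1.69%. Dntt, the enzyme that adds bases to the joined segments, was listed at 0 in tumour CD137 minus and found in 0.723% to 1.69% of cells elsewhere.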

How the data were processed

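Single-cell libraries of 4 cell suspensions were made with a kit that reads transcripts from their start, per the labels' protocols. Cell Ranger 3.0.2, Seurat 3.0 and the build mm10 are named in the submitters' processing notes. The sources used here do not say how cells were filtered or values normalized. The authors' deposited table holds natural log values. Taking the exponential and subtracting 1 gave whole numbers to a relative tolerance of 1e-06. With their normalization not stated, these are called corrected counts, no count model was used, and the original depth is unknown.

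The 90 V columns and 76 others were used, and 12597 columns were not. For that reason the planned ratios over all genes (CPM) and the thinning of cells to a fixed total were not run. Cells were taken to libraries by the names of their rows. No doublet caller was run. Members and lists were chosen with earlier results of these data known. Segments named were those with a share of at least 5% in a library or tumour Pdcd1 class, the 5 with the largest and 5 with the smallest ratio in each comparison among those with at least 25 cells, the 10 leading pairs and the constant, CD3 and recombination genes. Trbv24, the second alpha segments and the state genes by pair were picked after values were seen. The results of 1 gene, and of the list that holds it, are not reported here.

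Each group is 1 library, so no test was made. A 2-fold ratio of shares was the size limit, with a floor of 3 cells for a count of 0 in a Pdcd1 class. Shares have exact Clopper-Pearson 95% intervals. The share calculation was tested on simulated cells. Positions, transcripts and identities came from GENCODE M21. Alternatives were the highest segment per cell, values of at least 2, CD8 cells without markers of other cells, Pdcd1 of at least 2, Tox for Pdcd1, merged alpha copies, equal cell numbers and, chosen after seeing the data, removal of the 10 leading pairs and the CD8 gate for detection. Python 3.11.15, numpy 2.4.6, pandas 2.3.3, scipy 1.17.1 and matplotlib 3.10.9 were used.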

Additional observations from a re-analysis of the deposited data

How the results depend on the processing

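The planned CPM ratios over all genes and the thinning of cells were not run. No paired analysis was possible because each group is 1 library, and no replicate could be left out for the same reason. Ignoring values of 1 raised the cells with exactly 1 Trbv to 73.8%, 70.8%, 68.1% and 68.1% (spleen minus, spleen plus, tumour minus, tumour plus) and lowered those with exactly 1 Trav to 33.6%, 39.1%, 42.6% and 41.2%. The Trbv past 2-fold between tumours went from 3 to 1 with the highest segment or with values of at least 2. Those past 2-fold by Pdcd1 in CD137 plus went from 3 to 5, 6 and 1 with the highest segment, values of at least 2 and Tox. For Trav by Pdcd1 in CD137 minus, 3 became 6 with the highest segment and 5 with values of at least 2, as more segments had enough cells. The pair Trbv4 with Trav14-1 went from 12.0% to 8.59% of paired cells with the highest segment.

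Without the 10 leading pairs the counts were 4 in place of 11 for Trav between tumours, 1 in place of 5 for Trbv by Pdcd1 in CD137 minus, 0 in place of 3 for Trav there and 2 in place of 7 for Trav in CD137 plus, and the Trav index of CD137 minus cells with Pdcd1 was 25.3 in place of 13.3. The log2 ratio of shares between the tumours changed sign for Trbv4 (-1.12 from 1.68), Trav14-1 (-0.42 from 1.51), Trav3-1 (-0.87 from 1.60) and Trav3-3 (0.35 from -1.03). Removing these cells lowers their segments by construction. Of the values of detection, whole comparisons, evenness, pairs and Trbv4 cells with Pdcd1, 95 stayed within their interval or within 1.5 times, and 21 moved further. Of the values of single segments, 238 stayed within their interval, 30 moved further and 4 changed sign. By Pdcd1, the ratio of Trbv4 in CD137 plus was 6.81 with values of at least 2, and in CD137 minus that of Trbv16 was 0.0880 with Pdcd1 of at least 2 and that of Trbv19 was 1.03 with Tox. Segments with few cells, and all of spleen CD137 plus, are limited by cell number, with 269 and 214 assigned cells there, and no spleen difference exceeded the intervals.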
